A study of Mus musculus with 32 samples.

Results

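Ccl3, Ccl4, Ccl5, Xcl1, Ccl1 and Cxcl10, 6 chemokine genes that activated T cells are known to transcribe, were followed through sorted donor T cells of a mouse model of graft-versus-host disease. They were taken by symbol, and all 6 were found among the 16741 genes of the deposited expression table. The 31 RNA libraries came from spleen and lymph nodes and were of CD4 cells, CD8 cells or regulatory T cells (Treg). Donors were C57Bl6 mice and allogeneic hosts were Balb/c, a major histocompatibility mismatch. Day 0 cells were taken before transplantation (CD4, CD8 and Treg, 2 libraries each). Syngeneic libraries (CD4 and CD8, 3 each) came from donor cells in syngeneic hosts, whose strain the labels do not name. Allogeneic libraries (CD4 and CD8, 4 each) came from mismatched hosts without added Treg. Treg-treated libraries (CD4 and CD8, 4 each, and Treg, 3) came from mismatched hosts that also received Treg on day 0. The post-transplant titles give day 6, whereas the series text gives 8 days. The labels do not say whether cells of several animals were pooled or how Treg were sorted. They also do not say whether replicates of a group are separate animals, so p-values measure the spread between these samples.

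Chemokines are small secreted proteins that direct cell movement through G protein-coupled receptors on the responding cell. Ccl3, Ccl4 and Ccl5 attract T cells and myeloid cells to inflamed tissue, and Ccl3 and Ccl5 bind Ccr1, with Ccl5 also binding Ccr3. Xcl1 acts on Xcr1, a receptor of cross-presenting dendritic cells, Ccl1 acts on Ccr8, which is found on Treg and on some effector T cells, and Cxcl10 is an interferon-induced ligand of Cxcr3. T-cell receptor signalling induces several of these ligands, and in graft-versus-host disease such signals are known to guide donor T cells into target organs.

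The 4 genes with a promoter record in RefSeq (GRCm38.p6) are shown by the 250 bases before their annotated start, so that the letters upstream of genes that moved in different directions can be compared. All 4 lie on the minus strand, and each sequence is written 5′ to 3′ on that strand, ending at the base before the start. The windows are chr5:92348890-92349139 for Cxcl10, chr11:82179813-82180062 for Ccl1, chr1:164935523-164935772 for Xcl1 and chr11:83649379-83649628 for Ccl3. Capitals mark matches, on either strand, to an NFAT core (GGAAAA), AP-1 (TGANTCA), Runx (TGTGGT) and TATA-like (ATAAAA) motif, and no 2 matches overlap.
Cxcl10: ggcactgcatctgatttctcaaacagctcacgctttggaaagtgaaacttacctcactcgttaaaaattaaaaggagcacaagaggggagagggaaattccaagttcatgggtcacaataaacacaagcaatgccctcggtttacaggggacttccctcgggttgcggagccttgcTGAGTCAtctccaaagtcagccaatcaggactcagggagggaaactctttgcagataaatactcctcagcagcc
Ccl1: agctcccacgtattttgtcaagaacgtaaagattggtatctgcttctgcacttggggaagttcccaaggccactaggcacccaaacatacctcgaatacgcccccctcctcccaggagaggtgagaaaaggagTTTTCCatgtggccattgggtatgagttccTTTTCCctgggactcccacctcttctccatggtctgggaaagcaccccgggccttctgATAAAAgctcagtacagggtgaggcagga
Xcl1: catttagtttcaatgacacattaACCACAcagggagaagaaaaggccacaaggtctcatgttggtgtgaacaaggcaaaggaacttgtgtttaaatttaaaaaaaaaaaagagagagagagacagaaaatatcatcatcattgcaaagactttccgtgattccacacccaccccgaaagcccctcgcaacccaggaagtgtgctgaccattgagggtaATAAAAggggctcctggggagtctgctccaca
Ccl3: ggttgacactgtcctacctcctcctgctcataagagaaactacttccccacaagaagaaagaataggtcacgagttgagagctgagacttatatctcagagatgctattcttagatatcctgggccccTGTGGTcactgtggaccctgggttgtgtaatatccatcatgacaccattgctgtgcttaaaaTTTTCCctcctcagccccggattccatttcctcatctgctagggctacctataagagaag
The Cxcl10 window held an AP-1 match that began 74 bases before the start, and of 32851 promoters searched over the same length 6.75% held that motif. Ccl1 and Xcl1 each held a TATA-like match, 29 and 32 bases before the start, a motif in 17.0% of promoters. NFAT core matches, present in 20.4% of promoters, were found at 1 place in Ccl3 (60 bases before the start) and at 2 places in Ccl1 (117 and 87 bases). Runx matches, in 14.0% of promoters, were found once each in Ccl3 and Xcl1, 122 and 227 bases before the start. These are letter matches only, and no binding was measured.

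Ccl3 (ENSMUSG00000000982, chr11:83647843-83649378), Ccl4 (ENSMUSG00000018930, chr11:83648624-83664683), Ccl5 (ENSMUSG00000035042, chr11:83525778-83530518) and Ccl1 (ENSMUSG00000020702, chr11:82176666-82179812) lie on chromosome 11, per RefSeq on GRCm38.p6. Xcl1 (ENSMUSG00000026573) is at chr1:164931644-164935522 and Cxcl10 (ENSMUSG00000034855) at chr5:92346638-92348889. The RefSeq records of Ccl3 and Ccl4 overlap, that of Ccl4 including a predicted transcript. The counting is not stated to use strand or that transcript, so whether these genes share reads is unknown. Values are the authors' normalised counts, which are not divided by gene length, so levels are compared only within a gene. Changes are differences on log2(value + 1), called at a limma adjusted p under 0.05 over all genes. This scale understates changes of low genes.

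The lineage genes Cd4 and Cd8a followed the CD4 and CD8 labels in all libraries but 1. In the library labelled CD4 syngeneic JL019-2, Cd4 was 1659 and Cd8a 1956, and the summed level of 14 myeloid markers was 3741120, against 82934 and 92388 in the other 2 CD4 syngeneic libraries. For comparisons that include the CD4 syngeneic group, changes of the 6 genes were fitted with and without this library. It also entered the spread estimate that all groups share, and the other comparisons were not refitted without it alone. Foxp3, the defining transcription factor of Treg, went against the Treg label at day 0: it was 197.7 and 442.4 in the 2 Treg libraries of day 0 and 978 and 1145 in the 2 CD4 libraries. After transplantation Foxp3 was 265 to 293 in Treg, above the 127 to 178 in CD4 and 109 to 236 in CD8 cells of the Treg-treated arm. These Treg values were below the 337 to 579 in CD4 cells of untreated mismatched hosts. They lay inside the ranges of CD8 allogeneic (103 to 453) and CD4 syngeneic cells (44.9 to 905). Il2ra, Ikzf2 and Ctla4, Treg-associated genes chosen after their values were seen, were higher in the Treg libraries of day 0 than in those CD4 libraries (Il2ra 11229 and 13064 against 1923 and 1981, Ikzf2 14182 and 19287 against 1619 and 1770, Ctla4 8262 and 14415 against 1106 and 1180). Directions given below for Treg are those of the libraries labelled Treg. The mean value over all genes ranged from 1504 to 1669 in CD4 allogeneic and from 1608 to 2118 in CD4 Treg-treated libraries, and sequencing depth is unknown.

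**Figure D1:**
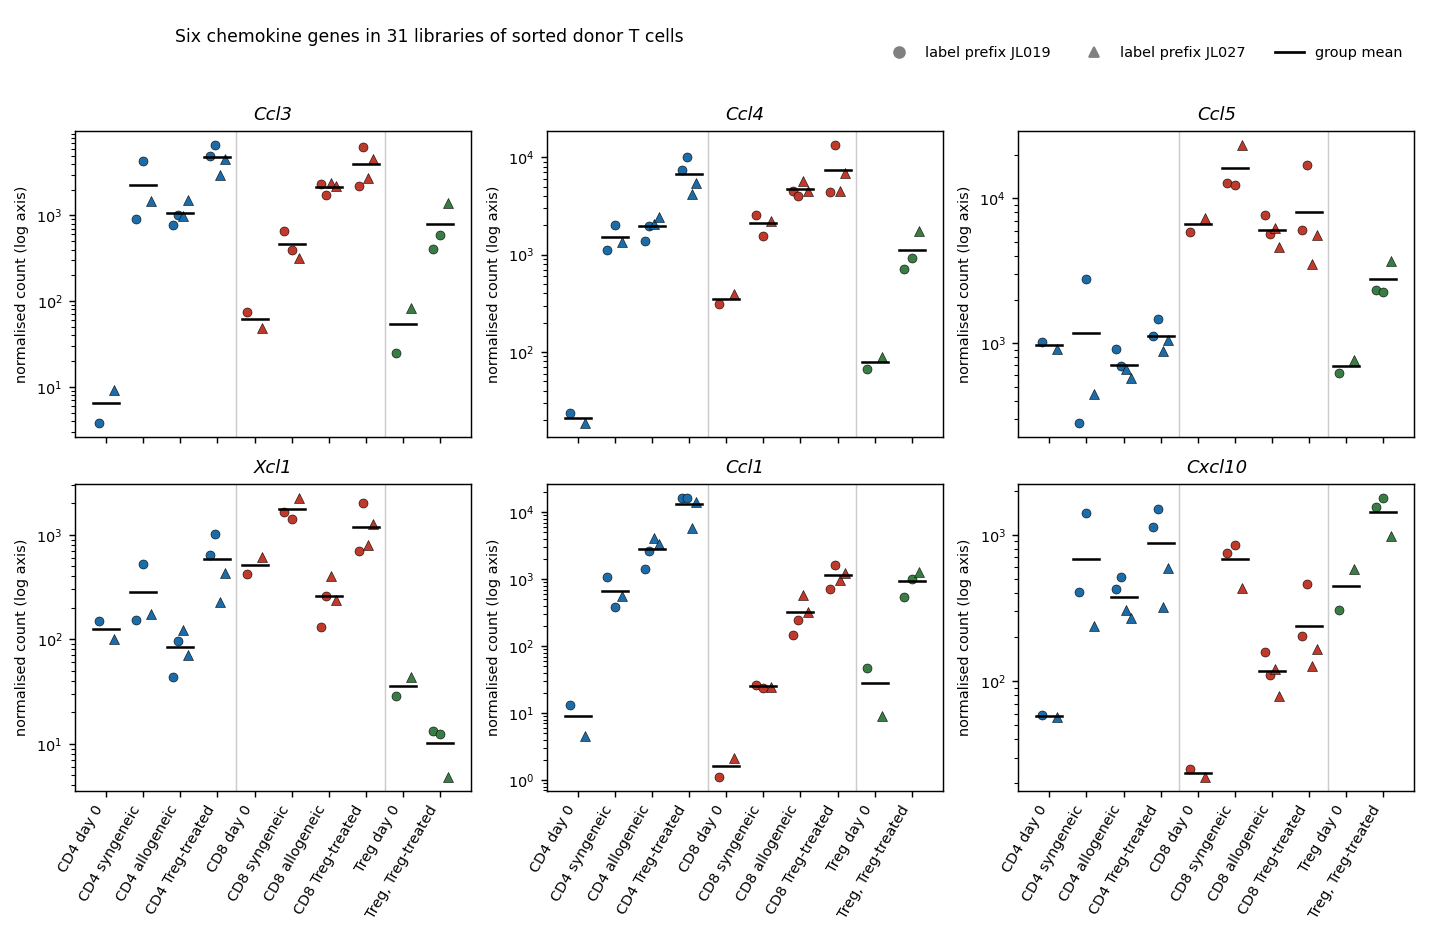
Normalised counts of the 6 chemokine genes (log axis) in each of the 31 libraries, by cell type and arm; circles are libraries with the label prefix JL019, triangles those with JL027, and bars are group means. Ccl1 is highest in the 4 CD4 Treg-treated libraries (5745 to 16332), Ccl5 in CD8 cells, Cxcl10 in Treg after transplantation (975 to 1781), and Xcl1 is lowest in those same Treg (4.85 to 13.1).

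Treg treatment was compared with no treatment in the mismatched hosts, first in CD4 cells. Ccl1, Ccl3, Ccl4 and Xcl1 rose in CD4 cells of Treg-treated hosts, by 1.73 to 2.68 on the log2 scale, and their values did not overlap those of untreated hosts. Ccl5 and Cxcl10 did not pass the test in this fit, and each passed under some other settings, given with its values. The 4 called genes of 6 stand beside 22.2% of all genes called in this comparison, of which 10.7% were called higher. The 4 of 6 that did not overlap stand beside 22.2% of all genes, 12.0% in the higher direction.

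Xcl1, the ligand for dendritic cells that carry Xcr1, was 43.7, 96.4, 123 and 71.3 in CD4 cells of untreated hosts and 637, 1026, 229 and 432 in those of treated hosts. Every treated library was above every untreated one, and the treated mean was 581 ± 340 (SD, n = 4) against 83.6 ± 33.8 (SD, n = 4). The change was 2.68 (SE 0.459, limma adjusted p = 0.0024), and 42 of the 16741 genes had a larger one. Ccl1, the Ccr8 ligand, was 1420, 2598, 4152 and 3330 in untreated hosts and 16332, 16301, 5745 and 14478 in treated hosts. The lowest treated library, JL027-1, was still above the highest untreated one. Ccl1 rose by 2.19 (SE 0.480, limma adjusted p = 0.0088).

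Of the neighbouring genes Ccl3 and Ccl4, Ccl3 was 768, 1005, 975 and 1529 in CD4 cells of untreated hosts and 4882, 6705, 2931 and 4571 in treated hosts. Ccl4 was 1373, 1958, 2081 and 2447, and then 7363, 10007, 4218 and 5406. Both were higher in all treated libraries, with the 2 of prefix JL019 at the top for both genes. Ccl3 rose by 2.14 (SE 0.447, limma adjusted p = 0.0074) and Ccl4 by 1.73 (SE 0.318, limma adjusted p = 0.0035).

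Ccl5, which attracts T cells and myeloid cells, was 912, 694, 663 and 572 in CD4 cells of untreated hosts and 1116, 1460, 875 and 1058 in treated hosts. The groups overlapped, with a change of 0.66 (95% interval -0.28 to 1.60, limma adjusted p = 0.31). Ccl5 was called when only the groups compared were fitted (limma adjusted p = 0.042) and with array weights, which weight each library by its spread (limma adjusted p = 0.017), and with the log2 library mean as a covariate its change was -0.16. Cxcl10, the interferon-induced ligand, was 426, 510, 305 and 269, and then 1133, 1488, 321 and 590, a change of 1.04 (95% interval 0.08 to 2.00, limma adjusted p = 0.11). These groups overlapped through the treated library JL027-1, without which the change was 1.45 and was called (limma adjusted p = 0.018). Cxcl10 was also called with a block on the replicate label (limma adjusted p = 0.032) and with array weights (limma adjusted p = 0.0011).

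The 4 calls were made under all 18 other settings run, leaving out each of the 8 libraries included (limma adjusted p up to 0.040). Among these settings, the run without a filter on low values repeats the main fit, because every gene passed that filter. Within label prefix JL019 the differences were 3.09 for Ccl1, 2.70 for Ccl3, 2.39 for Ccl4 and 3.62 for Xcl1. Within JL027 they were 1.29, 1.58, 1.08 and 1.74 in the same order, lower for each gene, and each prefix held 2 libraries a group. With the log2 library mean as a covariate, the calls over all genes fell from 3710 to 570 (470 to 5633 on leaving out 1 library, the ends being Treg-treated JL019-2 and JL027-1), and Ccl1, Ccl3, Ccl4 and Xcl1 were still called, at 1.97, 1.72, 1.26 and 1.90.

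Short genes stood higher as a class in this comparison. Of the 15855 genes with a span, the 3964 shortest (34 to 6756 bases) had a median change of 0.39 in CD4 cells, against 0.00 over all genes, and 17.8% of them were called higher and 2.04% lower. Of the 6 chemokine genes, 5 fall in that class (1536 to 4741 bases), while the Ccl4 record, which includes a predicted transcript and overlaps that of Ccl3, spans 16060, so that its class is uncertain. The changes of Ccl1, Ccl3 and Xcl1 exceeded the 95th percentile of that class, 1.498, whereas those of Ccl5 and Cxcl10 did not. The part of gene span in these results was not tested.

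Summed myeloid markers were also higher with CD4 Treg treatment, although few of the list were called. The sum of the 14 myeloid markers was 6343 to 12230 in CD4 cells of untreated hosts and 24989 to 92230 in treated hosts, none of the 14 was at 0 in every library of either group, and the groups did not overlap. Of the 14 markers, 2 were called higher and 1 lower by limma, with a median change of 0.81. S100a8, a neutrophil gene, was 2225 to 5243 and then 12431 to 44215. Csf1r, a macrophage gene, was 4.95 to 25.9 and then 3.23 to 28.5, and Adgre1, another, was 2.14 to 29.4 and then 2.17 to 23.3. Summed B cell markers (9 of 10 in the table) were 9473 to 12889 in untreated and 14394 to 17644 in treated hosts, and summed erythroid markers (8 of 8) 465 to 10822 and 5520 to 62621. The part of RNA from these other cell types in the chemokine changes was not tested. In such sorted bulk samples, fewer cells that transcribe a gene and less RNA per cell cannot be told apart.

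**Figure D2:**
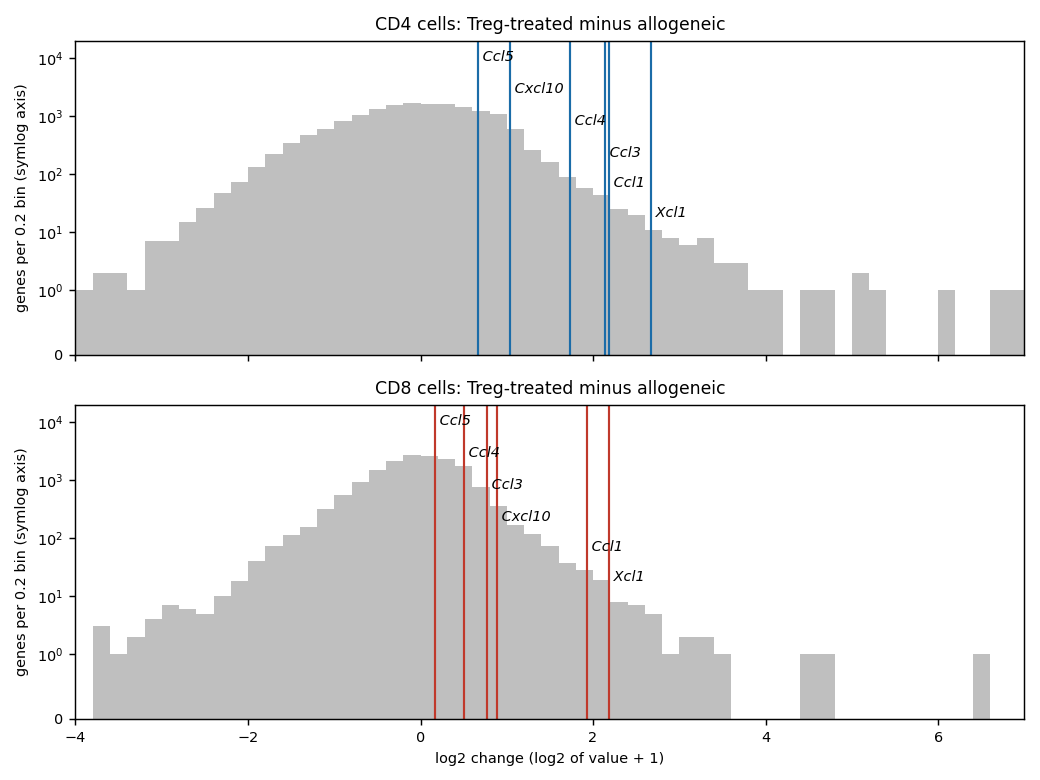
Numbers of genes (grey, bins of width 0.2, symlog axis) by their log2 change from allogeneic to Treg-treated hosts in CD4 cells (top) and CD8 cells (bottom), with the changes of the 6 chemokine genes as lines. In CD4 cells Xcl1, Ccl1, Ccl3 and Ccl4 lie in the right tail at 1.73 to 2.68, and in CD8 cells Xcl1 and Ccl1 do, at 2.18 and 1.93; the axis ends at -4 and 7.

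In CD8 cells of the same arms none of the 6 genes was called, where 0.0657% of all genes were called (11 genes, with 1851 at an unadjusted p under 0.05, 2 of the 6 chemokine genes among them). Xcl1 and Ccl1 nevertheless did not overlap between the arms, which held for 4.89% of all genes (2.58% higher). Xcl1 was 132, 261, 400 and 239 in CD8 cells of untreated hosts and 698, 2010, 791 and 1281 in treated hosts, a change of 2.18 (95% interval 1.24 to 3.13, limma adjusted p = 0.068). Ccl1 was 144, 243, 579 and 324, and then 707, 1619, 990 and 1246, a change of 1.93 (95% interval 0.95 to 2.92, limma adjusted p = 0.11). Every treated CD8 library was above every untreated one for both genes, and so was the myeloid marker sum (14944 to 38711 against 8735 to 13119, with 0 of 14 markers called by limma), whose part was not tested. Both were called without CD8 allogeneic JL027-1, the highest untreated library for both (limma adjusted p = 0.029 for Xcl1 and 0.048 for Ccl1). Xcl1 was also called without CD8 Treg-treated JL019-1 (limma adjusted p = 0.037) and with the library mean as a covariate (limma adjusted p = 0.030). With array weights both were called (limma adjusted p = 0.0039 for Xcl1 and 0.024 for Ccl1).

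Ccl3 in CD8 cells was 2305, 1719, 2359 and 2216 in untreated hosts and 2222, 6358, 2735 and 4507 in treated hosts, a change of 0.77 (95% interval -0.15 to 1.69). Ccl4 was 4509, 3977, 5732 and 4512, and then 4453, 13501, 4485 and 6880, a change of 0.50 (95% interval -0.15 to 1.15). The Cxcl10 values were 157, 111, 121 and 78.8, and then 203, 460, 127 and 166, a change of 0.89 (95% interval -0.07 to 1.85). Ccl5 was 7738, 5668, 6233 and 4625, and then 6065, 17009, 3534 and 5583, a change of 0.17 (95% interval -0.77 to 1.11), which turned to -0.28 without CD8 Treg-treated JL019-2. For all of these genes the arms overlapped, and CD8 Treg-treated JL019-2 was the highest of the 8 libraries. That library also had the highest mean over all genes of the 31, 2385.

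The effect of Treg treatment was not shown to differ between CD8 and CD4 cells. The difference of the effects (CD8 minus CD4) was -1.37 for Ccl3 (95% interval -2.67 to -0.08), -1.23 for Ccl4 (-2.16 to -0.31) and -0.49 for Xcl1 (-1.83 to 0.84). None of the 6 was called (limma adjusted p 0.90 to 0.97), beside 0.00597% of all genes (1 gene). With array weights Ccl3 (-1.61, limma adjusted p = 0.047) and Ccl4 (-1.50, limma adjusted p = 0.0071) were called. At an unadjusted p under 0.05 there were 430 genes, Ccl3 and Ccl4 among them.

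**Figure D3:**
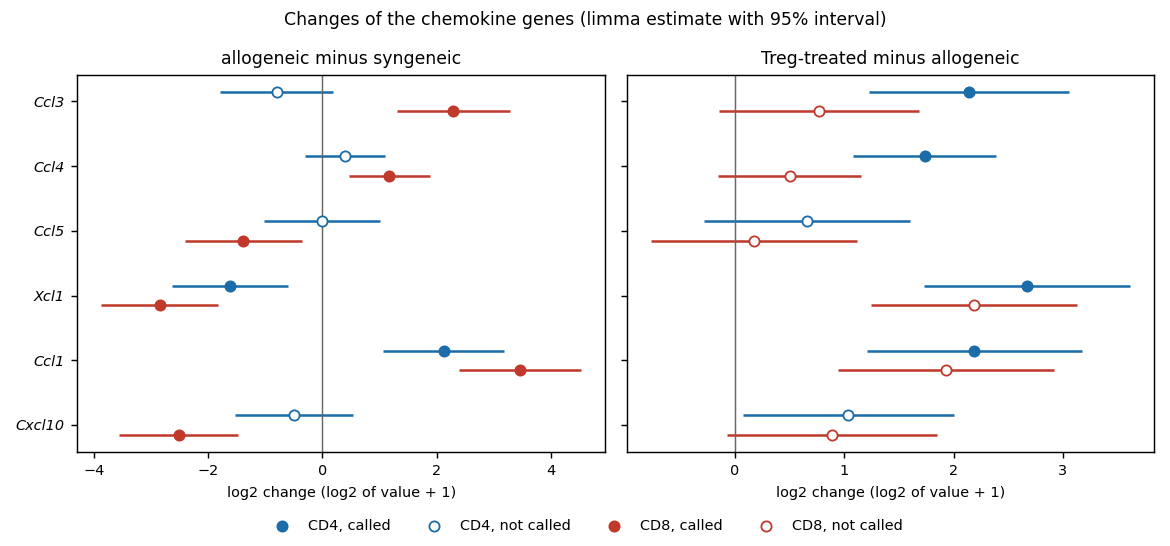
Estimated log2 changes of the 6 genes with 95% intervals, for allogeneic minus syngeneic (left) and Treg-treated minus allogeneic hosts (right), in CD4 cells (blue) and CD8 cells (red); filled points passed a limma adjusted p of 0.05. Ccl3 lies at -0.80 in CD4 and 2.29 in CD8 cells on the left, where its gap of 3.09 is the widest with all libraries (without CD4 syngeneic JL019-2 it is 2.46, and that of Cxcl10, -2.74, is wider), and the 4 filled points on the right are all of CD4 cells.

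Mismatched hosts were next compared with syngeneic hosts. In CD8 cells all 6 genes were called, in opposite directions: Ccl1, Ccl3 and Ccl4 were higher in mismatched hosts, while Xcl1, Cxcl10 and Ccl5 were lower. This stands beside 21.1% of all genes called, and none of the 6 overlapped between the arms, as for 30.3% of all genes. Ccl1 was 26.7, 24.1 and 24.3 in syngeneic hosts, against the 144 to 579 given above, and rose by 3.46 (SE 0.518, limma adjusted p = 1.3e-05). Ccl3 was 663, 395 and 316 against 1719 to 2359 and rose by 2.29 (SE 0.483, limma adjusted p = 0.00087). Ccl4 was 2541, 1566 and 2206 against 3977 to 5732 and rose by 1.17 (SE 0.344, limma adjusted p = 0.015).

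The marker lists moved between these arms too. The myeloid sum was 40223 to 63743 in CD8 cells of syngeneic and 8735 to 13119 in those of mismatched hosts, with 2 of 14 markers called higher in mismatched hosts and 6 lower. The sum of 8 natural killer cell markers was 3474 to 6334 and then 84040 to 127308, but 4 of the 8 were called lower and 1 higher, with a median change of -2.08. Gzma, a granule protease that cytotoxic T cells also make, carried the sum, at 1557 to 3506 and then 83340 to 126320, while Klra8 was at 0 in every mismatched CD8 library. Their part in the chemokine differences was not tested.

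Of the CD8 groups, syngeneic hosts had the highest means of the other 3 genes. Xcl1 was 1639, 1402 and 2249 in CD8 cells of syngeneic hosts against 132 to 400 in mismatched hosts, and fell by 2.85 (SE 0.496, limma adjusted p = 9.5e-05). Cxcl10 was 751, 855 and 433 against 78.8 to 157 and fell by 2.51 (SE 0.506, limma adjusted p = 0.00054). Ccl5 was 12802, 12415 and 23555 against 4625 to 7738 and fell by 1.38 (SE 0.496, limma adjusted p = 0.047). The Ccl5 call was lost without any one of the 7 libraries compared (limma adjusted p 0.053 to 0.24), and the Ccl4 call was lost without CD8 syngeneic JL019-2 (limma adjusted p = 0.077). The Ccl5 call was also lost with quantile normalisation, with centring on medians and with a block on the label prefix (limma adjusted p 0.055 to 0.058) or on the replicate label (limma adjusted p = 0.22).

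In CD4 cells 2 of 6 genes were called between mismatched and syngeneic hosts, where 14.6% of all genes were. Ccl1 was 1081, 381 and 563 in syngeneic hosts, below all 4 mismatched libraries (1420 to 4152), and rose by 2.12 (SE 0.518, limma adjusted p = 0.0050). Xcl1 was 152, 529 and 174 against 43.7 to 123 and fell by 1.61 (SE 0.496, limma adjusted p = 0.026). These 2 were also the 2 that did not overlap, beside 23.2% of all genes. Without CD4 syngeneic JL019-2 the Ccl1 change was 1.78 (limma adjusted p = 0.045) and the Xcl1 change -1.05, not called (limma adjusted p = 0.24). The myeloid markers were lower in mismatched hosts in this comparison, 13 of 14 called by limma with a median of -3.93, and 9 of 14 with a median of -2.37 without JL019-2. Of 8 erythroid markers 4 were called lower, and 3 without that library. Of 8 natural killer cell markers 3 were called lower and 1 higher (median -2.30), and 2 lower and 2 higher without it (median -0.39). Of 7 dendritic markers 3 were called lower and 1 higher, and 2 lower and 2 higher without it. The part of these markers in the CD4 differences was not tested. Xcl1 was also not called without CD4 allogeneic JL019-1 (limma adjusted p = 0.10) or JL027-2 (limma adjusted p = 0.058). Nor was it called with quantile normalisation (limma adjusted p = 0.075), centring on medians (limma adjusted p = 0.057) or only the groups compared (limma adjusted p = 0.11).

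Ccl3 in CD4 cells of syngeneic hosts was 919, 4341 and 1472, a range that held all 4 mismatched values but 1, the 768 of JL019-1. Its change was -0.80 (95% interval -1.79 to 0.19, limma adjusted p = 0.32), and -0.17 without CD4 syngeneic JL019-2, which gave the 4341. Ccl4 was 1129, 2041 and 1358, with a change of 0.40 (95% interval -0.31 to 1.10), and 0.64 without JL019-2. Ccl5 overlapped, with a change of -0.0047 (95% interval -1.02 to 1.01) and 0.99 without that library (called only with array weights, at 0.80), and Cxcl10 overlapped too, with -0.50 (95% interval -1.54 to 0.54) and 0.23 without it. The library JL019-2 was the highest of the 3 for Ccl3, Ccl4, Ccl5 (2779 against 279 and 446), Xcl1 and Cxcl10 (1416 against 407 and 239), and the lowest for Ccl1.

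The effect of the mismatch on Ccl3 differed between the cell types. The difference (CD8 minus CD4) was 3.09 (SE 0.683, limma adjusted p = 0.0064), the 1 call of 6 beside 4.65% of all genes. Without CD4 syngeneic JL019-2 it was 2.46 (limma adjusted p = 0.025). The differences of Ccl5 (-2.37, limma adjusted p = 0.0057) and Cxcl10 (-2.74, limma adjusted p = 0.012) were then called too. For this difference 3 of 14 myeloid markers were called higher (median 2.32), and 3 without that library (median 0.66). Of 8 natural killer cell markers 1 was called lower, and 3 without that library. The part of these markers was not tested.

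Treg-treated hosts were also set against syngeneic hosts, with the same treated libraries as above. In CD4 cells 2 of 6 genes were called, where 16.7% of all genes were (8.23% higher). Ccl1 was higher by 4.31 (SE 0.518, limma adjusted p = 1.0e-06) and Ccl4 by 2.13 (SE 0.344, limma adjusted p = 6.8e-05). Ccl3 (1.34, limma adjusted p = 0.056) and Xcl1 (1.06, limma adjusted p = 0.14) overlapped with the library JL019-2. Without it, all but Cxcl10 were called, with Ccl1 at 3.97, Ccl4 at 2.37, Ccl3 at 1.98, Xcl1 at 1.63 and Ccl5 at 1.65. Of the 14 myeloid markers 10 were called lower in treated hosts, and 5 lower and 1 higher without that library. Of 8 natural killer cell markers 4 were called lower and 1 higher (median -2.57), and 0 lower and 2 higher without that library. Of 8 erythroid markers 3 were called lower, and 1 without it. The part of these markers was not tested. Both Ccl3 and Xcl1 were also called without CD4 Treg-treated JL027-1, at 1.56 and 1.44. Array weights called both as well (1.98 and 1.74), and centring on medians called Ccl3 (1.65).

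In CD8 cells 4 of 6 genes were called between Treg-treated and syngeneic hosts, where 18.2% of all genes were. Ccl1 was higher by 5.39 (SE 0.518, limma adjusted p = 9.1e-09), Ccl3 by 3.06 (SE 0.483, limma adjusted p = 2.7e-05) and Ccl4 by 1.67 (SE 0.344, limma adjusted p = 0.00070). Cxcl10 was lower, with a change of -1.63 (limma adjusted p = 0.023), and its call was lost without any one of 4 of the 7 libraries (JL027-1 and JL027-2 of the treated group, JL019-1 and JL019-2 of the syngeneic group) and with quantile normalisation (limma adjusted p = 0.064). Xcl1 was 698 to 2010 in treated and 1402 to 2249 in syngeneic hosts, an overlap, with a change of -0.66 (95% interval -1.68 to 0.36), and was called lower with the library mean as a covariate (limma adjusted p = 0.032) and with array weights (limma adjusted p = 0.021). The myeloid sums did not overlap (14944 to 38711 in treated, 40223 to 63743 in syngeneic hosts), with 2 of 14 markers called higher and 3 lower. Of 8 natural killer cell markers 2 were called higher and 4 lower (median -1.76), and the part of these markers was not tested. The 3 comparisons among these arms share libraries and are not independent of each other.

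Before transplantation the ligands were lower in most cases. In CD4 cells of day 0 the 2 libraries gave 3.76 and 9.28 for Ccl3, 23.6 and 18.6 for Ccl4, 13.3 and 4.60 for Ccl1 and 58.8 and 56.9 for Cxcl10. All 4 rose in mismatched hosts, by 7.21, 6.45, 8.22 and 2.64 (limma adjusted p 1.0e-12 to 0.0010), 4 of 6 called where 24.0% of all genes were (14.4% higher). The other two did not pass: Xcl1 was 150 and 101 at day 0 (change -0.65, 95% interval -1.80 to 0.51), and Ccl5 was 1013 and 917 (change -0.46, 95% interval -1.61 to 0.69), above each mismatched CD4 library. Of the 14 myeloid markers 5 were called higher in mismatched hosts (sums of 1578 to 2412 at day 0 and 6343 to 12230), and of 9 B cell markers 4 were called lower, and their part in the CD4 changes was not tested. With the library mean as a covariate Xcl1 (-1.60, limma adjusted p = 0.0048) and Ccl5 (-1.46, limma adjusted p = 0.0057) were called lower.

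In CD8 cells of day 0 Ccl3 was 74.5 and 49.2, Ccl4 311 and 391, Ccl1 1.13 and 2.14 and Cxcl10 24.9 and 22.2. The same 4 genes rose in CD8 cells of mismatched hosts, by 5.12, 3.73, 6.79 and 2.22 (limma adjusted p 9.1e-10 to 0.0041), where 30.4% of all genes were called (16.3% higher). Ccl5 was already 5898 and 7375 at day 0, inside the range of the mismatched hosts. Xcl1 was 418 and 616, above each mismatched library, with a change of -1.08 (95% interval -2.24 to 0.07, limma adjusted p = 0.15). With the library mean as a covariate Xcl1 was called lower (-2.35, limma adjusted p = 0.00018) and Cxcl10 lost its call (1.18, limma adjusted p = 0.091). In this comparison 6 of 9 B cell markers were called lower, 4 of 8 natural killer cell markers lower and 1 higher, 5 of 14 myeloid markers higher and 4 lower, and 3 of 8 erythroid markers lower, and their part was not tested.

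Transfer into syngeneic hosts was followed by higher values as well, against the same day 0 libraries. In CD4 cells Ccl1 rose by 6.10, Ccl3 by 8.01, Ccl4 by 6.06 and Cxcl10 by 3.14, 4 of 6 called where 13.0% of all genes were (9.90% higher). Without CD4 syngeneic JL019-2 these were 6.45, 7.38, 5.82 and 2.41, all called by limma, and Ccl5, at -0.46 with all libraries, was then called lower, at -1.45 (limma adjusted p = 0.045). It was also called lower with the library mean as a covariate (-1.65, limma adjusted p = 0.0094) and with array weights (-1.31, limma adjusted p = 0.0013). The Cxcl10 call was lost when only the groups compared were fitted (limma adjusted p = 0.18). Xcl1 was not called in CD4 cells, at 0.96 and at 0.40 without that library. The myeloid sum rose too, from 1578 to 2412 at day 0 to 82934 or more in each of the 3 syngeneic libraries, with 14 of 14 markers called higher (median 4.45), and 12 of 14 without JL019-2 (median 2.94). Of 8 erythroid markers 5 were called higher, and 0 without JL019-2 by limma. The part of these markers in the rises was not tested. In CD8 cells 5 of 6 genes rose, where 24.2% of all genes were called (13.0% higher): Cxcl10 by 4.74, Ccl1 by 3.33, Ccl3 by 2.83, Ccl4 by 2.56 and Xcl1 by 1.77. The myeloid sum went from 6914 to 7392 at day 0 to 40223 to 63743, with 2 of 14 markers called higher, and 8 of 9 B cell markers and 3 of 8 erythroid markers were called lower, and their part was not tested. The Xcl1 call (limma adjusted p = 0.032) was lost without CD8 syngeneic JL019-1 (limma adjusted p = 0.063) or JL027 (limma adjusted p = 0.11), with quantile normalisation (limma adjusted p = 0.060) and with the library mean as a covariate, where the change was 0.26 (limma adjusted p = 0.74).

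CD8 and CD4 cells were then compared within each arm. Ccl5 was higher in CD8 cells in all 4 arms (limma adjusted p 8.6e-07 to 0.011). The differences were 2.77 at day 0, 4.46 in syngeneic, 3.09 in allogeneic and 2.60 in Treg-treated hosts. Without CD4 syngeneic JL019-2 the syngeneic difference was 5.45. Ccl1 was lower in CD8 cells in the 3 transplanted arms, with changes of -4.56, -3.22 and -3.48 in that order (limma adjusted p 1.25e-06 to 5.2e-05), the first being -4.91 without that library. At day 0 both cell types had Ccl1 values of 13.3 or less and the gene was not called. Counts of called genes were 3 of 6 at day 0, 4 in syngeneic, 5 in allogeneic and 3 in Treg-treated hosts, beside 3.32%, 12.0%, 6.15% and 9.61% of all genes. Without CD4 syngeneic JL019-2 the calls in syngeneic hosts were 2 higher and 1 lower in CD8 cells. In syngeneic hosts 7 of 14 myeloid markers were called lower in CD8 cells, and 1 without that library. Of 8 natural killer cell markers 4 were called higher in CD8 cells there and 1 lower (median 2.24), and 5 higher without that library (median 3.45). Natural killer cells are known to transcribe Xcl1 and Ccl5, and the part of these markers was not tested. At day 0, 2 of 8 natural killer cell markers (median 1.81) and 2 of 8 erythroid markers (median 5.27) were called higher in CD8 cells, and in allogeneic and Treg-treated hosts 2 and 1 of the 8 natural killer cell markers were.

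Ccl3 did not keep one order between the cell types, and Ccl4 was called in 2 arms, higher in CD8 cells in both. At day 0 Ccl3 and Ccl4 were higher in CD8 cells, by 3.14 and 3.99 (limma adjusted p = 0.0028 and 1.2e-06). In syngeneic hosts Ccl3 was lower in CD8 cells, with a change of -2.05 (limma adjusted p = 0.0086), but -1.41 and not called without CD4 syngeneic JL019-2 (limma adjusted p = 0.081). The call was also lost without CD8 syngeneic JL027 (limma adjusted p = 0.055) and when only the groups compared were fitted (limma adjusted p = 0.16). Ccl4 differed there by 0.50 (95% interval -0.26 to 1.25), or 0.74 without JL019-2, and Cxcl10 by 0.34 (95% interval -0.77 to 1.45), or 1.06 without it, none of them called. With array weights both were called, at 0.99 (limma adjusted p = 0.00051) and 1.22 (limma adjusted p = 0.0010). In allogeneic hosts Ccl4 was higher in CD8 cells by 1.27 (limma adjusted p = 0.013), a call lost without CD4 allogeneic JL019-1 or CD8 allogeneic JL027-1 (limma adjusted p = 0.066 and 0.051). The Ccl3 values there were 768 to 1529 in CD4 and 1719 to 2359 in CD8 cells. The Ccl3 change was 1.04 (95% interval 0.12 to 1.96) and was not called (limma adjusted p = 0.21). In Treg-treated hosts the CD4 and CD8 ranges of both genes overlapped and neither was called. Ccl3 was lower in the CD8 library in each of 4 pairs with the same label (differences of -1.14 to -0.02), with a change of -0.33 (95% interval -1.25 to 0.58).

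Xcl1 was higher in CD8 cells of syngeneic hosts by 2.84 (limma adjusted p = 0.00049), or 3.41 without CD4 syngeneic JL019-2, and of allogeneic hosts by 1.61 (limma adjusted p = 0.032). In Treg-treated hosts the difference was 1.11 (95% interval 0.17 to 2.06, limma adjusted p = 0.14), and it was positive in each of the 4 pairs of CD4 and CD8 libraries with the same label. It was called with the library mean as a covariate (0.88, limma adjusted p = 0.041). Cxcl10 was lower in CD8 cells of allogeneic hosts (-1.68, limma adjusted p = 0.028) and Treg-treated hosts (-1.83, limma adjusted p = 0.011). The allogeneic calls of both were lost on leaving out any one of CD4 allogeneic JL019-1 or JL019-2, or CD8 allogeneic JL019-2, JL027-1 or JL027-2, and that of Xcl1 also without CD4 allogeneic JL027-2 (limma adjusted p up to 0.14 for Xcl1 and 0.105 for Cxcl10). Quantile normalisation lost both too (limma adjusted p = 0.063 and 0.079). The treated Cxcl10 call was lost without CD4 Treg-treated JL019-1 or JL019-2 or CD8 Treg-treated JL027-1 (limma adjusted p 0.051 to 0.063), or with only the groups compared (limma adjusted p = 0.088).

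Libraries labelled Treg carried another mixture of the same ligands. After transplantation Ccl1, Ccl3, Ccl4 and Ccl5 were higher than at day 0 and Xcl1 was lower, 5 of 6 called where 13.3% of all genes were. Of the markers of other cells, 5 of 8 erythroid ones were called higher (median 4.40), 4 of 8 natural killer cell ones lower and 1 higher (median -2.71), and 3 of 14 myeloid ones higher and 1 lower, and their part was not tested. Ccl1 went from 47.7 and 9.10 to 547, 993 and 1279, a rise of 5.32 (SE 0.620, limma adjusted p = 5.3e-07). Ccl3 went from 24.6 and 82.1 to 406, 586 and 1407, a rise of 3.91 (SE 0.577, limma adjusted p = 1.8e-05), and Ccl4 from 66.9 and 89.6 to 708, 926 and 1734, a rise of 3.74 (SE 0.411, limma adjusted p = 2.2e-07).

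Ccl5 in Treg went from 618 and 763 to 2337, 2261 and 3690, a rise of 1.97 (SE 0.593, limma adjusted p = 0.025). Xcl1 went from 28.3 and 43.7 to 13.1, 12.5 and 4.85 and fell by 1.80 (SE 0.593, limma adjusted p = 0.042). Both calls were lost without Treg JL027 after transplantation (limma adjusted p = 0.097 for Ccl5 and 0.19 for Xcl1). The Xcl1 call was also lost without JL019-2 (limma adjusted p = 0.052). The Xcl1 call was lost as well with quantile normalisation, centring on medians and only the groups compared (limma adjusted p 0.066 to 0.12), and that of Ccl5 with the library mean as a covariate (0.89, limma adjusted p = 0.12). Cxcl10 was 304 and 586 at day 0 and 1541, 1781 and 975 afterwards, a change of 1.71 (95% interval 0.47 to 2.96, limma adjusted p = 0.061), called with only the groups compared (limma adjusted p = 0.0062), with a block on the label prefix (limma adjusted p = 0.031) and with array weights (limma adjusted p = 0.0023).

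Set against CD4 cells of the Treg-treated arm, these Treg had lower Xcl1, Ccl1, Ccl3 and Ccl4, 4 of 6 called where 30.0% of all genes were (16.1% lower). Xcl1 fell by 5.61 from CD4 to Treg (SE 0.496, limma adjusted p = 6.3e-09), with 229 to 1026 in CD4 cells. The differences of Ccl1, Ccl3 and Ccl4 were -3.78, -2.72 and -2.62 (limma adjusted p 4.6e-06 to 0.00020). Ccl5 was higher in each Treg library than in each CD4 library, with a change of 1.28 that was not called (95% interval 0.26 to 2.30, limma adjusted p = 0.052), though it was under 5 other settings, up to 2.18 with the library mean as a covariate (limma adjusted p = 6.5e-05). Cxcl10 overlapped, with a change of 0.88 (95% interval -0.16 to 1.92), and was called with that covariate (1.59, limma adjusted p = 0.014). The myeloid markers were lower in these Treg as well, 8 of 14 called lower and 1 higher (median -2.40). Their sums were 2350 to 7755 against 24989 to 92230 in CD4 cells. Of 8 natural killer cell markers 3 were called lower and 0 higher (median -0.96), and of 9 B cell markers 2 were called higher. The part of these markers was not tested.

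Against CD8 cells of the treated hosts 5 of 6 genes were called in Treg, where 36.2% of all genes were. Cxcl10 was higher in Treg by 2.71 (SE 0.506, limma adjusted p = 0.00016), from 127 to 460 in CD8 cells. Xcl1 (-6.72), Ccl4 (-2.65), Ccl3 (-2.39) and Ccl5 (-1.32) were lower. The Ccl5 call (limma adjusted p = 0.039) was lost without CD8 Treg-treated JL019-2 (-0.87, limma adjusted p = 0.16) or JL027-2 (limma adjusted p = 0.051), and without Treg JL019-1 or JL019-2 (limma adjusted p = 0.11 and 0.12). With the library mean as a covariate the Ccl5 difference was -0.17 (limma adjusted p = 0.75), and it was not called with quantile normalisation (-0.94, limma adjusted p = 0.14) or only the groups compared (limma adjusted p = 0.056). The Treg and CD8 values of Ccl1 overlapped. Of the 14 myeloid markers 6 were called lower in Treg than in CD8 cells, as were 4 of 8 natural killer cell markers (median -1.76), and 3 of 8 stromal markers were called higher. The part of these markers was not tested.

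At day 0 Treg differed from CD4 cells in 3 of 6 genes, where 3.89% of all genes were called (2.54% higher). Cxcl10 was higher by 2.85 (SE 0.663, limma adjusted p = 0.010), with 304 and 586 in Treg against 58.8 and 56.9 in CD4 cells. Ccl3 was higher by 2.72 (SE 0.632, limma adjusted p = 0.010) and Ccl4 by 1.84 (SE 0.450, limma adjusted p = 0.015). The Ccl3 call was lost when only the groups compared were fitted (limma adjusted p = 0.058), and the Ccl4 call with centring on medians (1.76, limma adjusted p = 0.05004). Xcl1 was 28.3 and 43.7 in Treg, below both CD4 values, and did not pass. Of 14 myeloid markers 2 were called lower in Treg (median of the list 1.09), and of 8 erythroid markers 1 was (median -2.88). Their part was not tested.

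The order of the group means differed from gene to gene. Ccl1 was highest in CD4 Treg-treated cells (13214 ± 5054, SD, n = 4), and that group alone stood above its next group, CD4 allogeneic, without overlap. For Ccl3, Ccl4, Ccl5, Xcl1 and Cxcl10 the highest group overlapped with the next. Ccl3 led in CD4 Treg-treated cells (4772 ± 1547, SD, n = 4) over CD8 Treg-treated cells (3955 ± 1877, SD, n = 4), and Ccl4 led in CD8 Treg-treated cells over CD4 Treg-treated cells. Xcl1 and Ccl5 were highest in CD8 syngeneic cells and Cxcl10 in Treg after transplantation. The lowest groups were CD4 day 0 for Ccl3 and Ccl4, CD8 day 0 for Ccl1 and Cxcl10, Treg day 0 for Ccl5 and Treg after transplantation for Xcl1.

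Ccl3 and Ccl4 followed each other most closely of the 15 pairs, with a Pearson r of 0.97 over the 10 group means and 0.95 over the 31 libraries. Taking the deviations of libraries from their group means, their r was 0.76. Ccl5 and Cxcl10 had an r of -0.21 over the group means and 0.66 over the deviations. Without CD4 syngeneic JL019-2 these were 0.97, 0.96 and 0.75 for Ccl3 and Ccl4, and -0.16 over the group means and 0.45 over the deviations for Ccl5 and Cxcl10. These correlations are descriptions, and the points share library, sort and the authors' scaling.

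By a rule of the 3 highest Pearson r over the 31 libraries among 10781 genes, Ccl3 was most like Cdkn3 (0.96), H2ac24 and Ube2c, and Ccl4 most like Ska1 (0.98), Birc5 and Ube2c. Cdkn3, Ube2c, Ska1 and Birc5 act in cell division, and H2ac24 encodes a histone. Birc5 averaged 287 in CD4 and 1314 in CD8 cells at day 0, and 11655 in CD4 and 19655 in CD8 cells of Treg-treated hosts. Ccl5 was most like Cd8b1 (0.89), Cd8a and Wdr95, the first 2 being the CD8 chains. Ccl1 was most like Cd70 (0.95), a costimulatory ligand of activated lymphocytes, Hrh4 and Ly6a. Cd70 averaged 261 in CD4 allogeneic and 638 in CD4 Treg-treated cells. Xcl1 was most like Ppic (0.94), Uqcc1 and Mrps18b, and Cxcl10 most like Hbegf (0.92), Cebpb and Atf3. Without CD4 syngeneic JL019-2, 14 of these 18 placings held, and the others fell to rank 5 at the lowest.

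**Figure D4:**
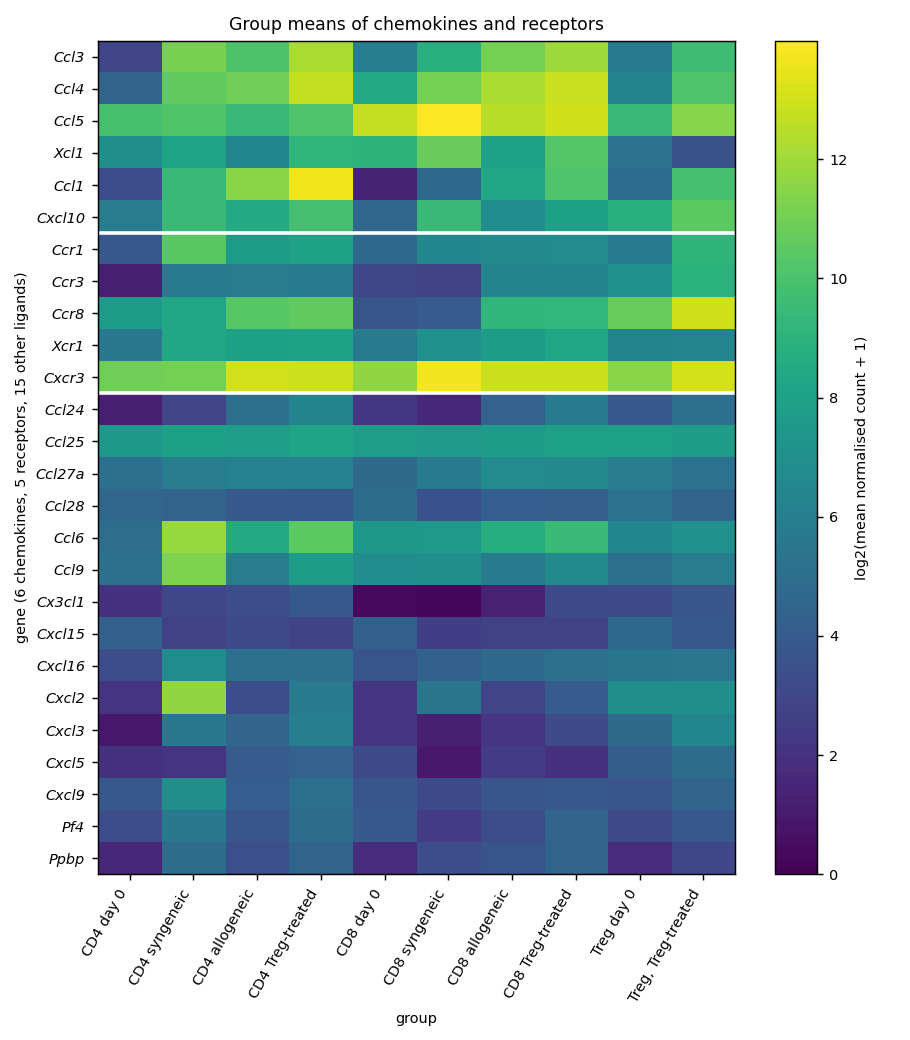
Group means, as log2(mean normalised count + 1), of the 6 chemokine genes (top), 5 receptors of these ligands (middle) and 15 other chemokine ligands (bottom) in the 10 groups; colours are to be compared along a row only, since values are not divided by gene length. Ccr8 is brightest in Treg after transplantation, at a mean of 7957, and the CD4 syngeneic column includes the library with high myeloid markers.

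Of 5 receptors of these ligands, 0 were called with Treg treatment in CD4 or in CD8 cells by limma, with median changes of 0.15 and 0.08, beside 22.2% and 0.0657% of all genes. Against day 0, 5 of 5 were called higher in mismatched hosts in both cell types, where 14.4% of all genes were in CD4 and 16.3% in CD8 cells. Ccr8, the receptor of Ccl1, was 194 and 204 in CD4 cells of day 0, 997 to 1636 in mismatched and 1130 to 1978 in Treg-treated hosts. In CD8 cells it was 9.73 and 13.3 at day 0, 423 to 700 in mismatched and 515 to 703 in treated hosts, and 6.70 to 24.5 in syngeneic hosts. Ccr8 was higher in mismatched than in syngeneic hosts by 5.22 in CD8 cells. In Treg it was 1632 and 1817 at day 0 and 5192 to 10371 after transplantation, above every other library.

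Cxcr3, the receptor of Cxcl10, was 7825 to 8803 in CD4 allogeneic and 7523 to 8601 in CD4 Treg-treated cells, ranges that overlap, and 11096 to 17546 in CD8 syngeneic cells. Ccr1 averaged 200 in CD4 allogeneic, 263 in CD4 Treg-treated cells and 568 in Treg after transplantation. Ccr3 averaged 59.6, 55.2 and 493 in those groups. Xcr1, the receptor of Xcl1, averaged 249 and 279 in CD4 allogeneic and Treg-treated cells and 80.3 in Treg after transplantation.

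Of 32 other chemokine ligands searched, 15 were in the table. Treg treatment gave 0 calls of 15 in CD4 cells and 0 of 15 in CD8 cells by limma, beside 22.2% and 0.0657% of all genes, with median changes of 0.95 and 0.81 against 0.00 and -0.01 over all genes. One of them, Ccl6, a ligand of myeloid cells, was 261 to 477 in CD4 allogeneic and 381 to 3027 in CD4 Treg-treated cells, an overlap. Against day 0, 5 of 15 were called higher in CD4 cells of mismatched hosts (Cxcl3, Ccl6 and Ccl24 with the largest changes, 3.63, 3.57 and 3.35), beside 14.4% of all genes. In CD8 cells 1 of 15 was (Ccl27a, 1.91), a share below the 16.3% of all genes.

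Of 19 regulators of chemokine transcription or mRNA decay, 3 were called, all lower, with Treg treatment in CD4 cells and 0 in CD8 cells by limma. This stands beside 22.2% of all genes called in CD4 cells (11.5% lower), a share that the list's count is near. Zfp36l2, an mRNA decay factor, fell by 2.14, from 7002 to 13136 in untreated to 1628 to 2755 in treated hosts. Nfatc1 and Nfatc2, transcription factors of T-cell receptor signalling, fell by 1.98 and 1.58. Nfatc1 was 2396 to 4409 in untreated and 670 to 1615 in treated hosts, and Nfatc2 was 1215 to 2054 and then 375 to 1118, neither overlapping. The medians of the 19 genes were -0.69 in CD4 and 0.02 in CD8 cells, against 0.00 and -0.01 over all genes. Gene span moves with these changes too: the 3964 genes with the longest span (50708 bases and more) had a median change of -0.25 in CD4 cells, and its part was not tested.

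**Figure D5:**
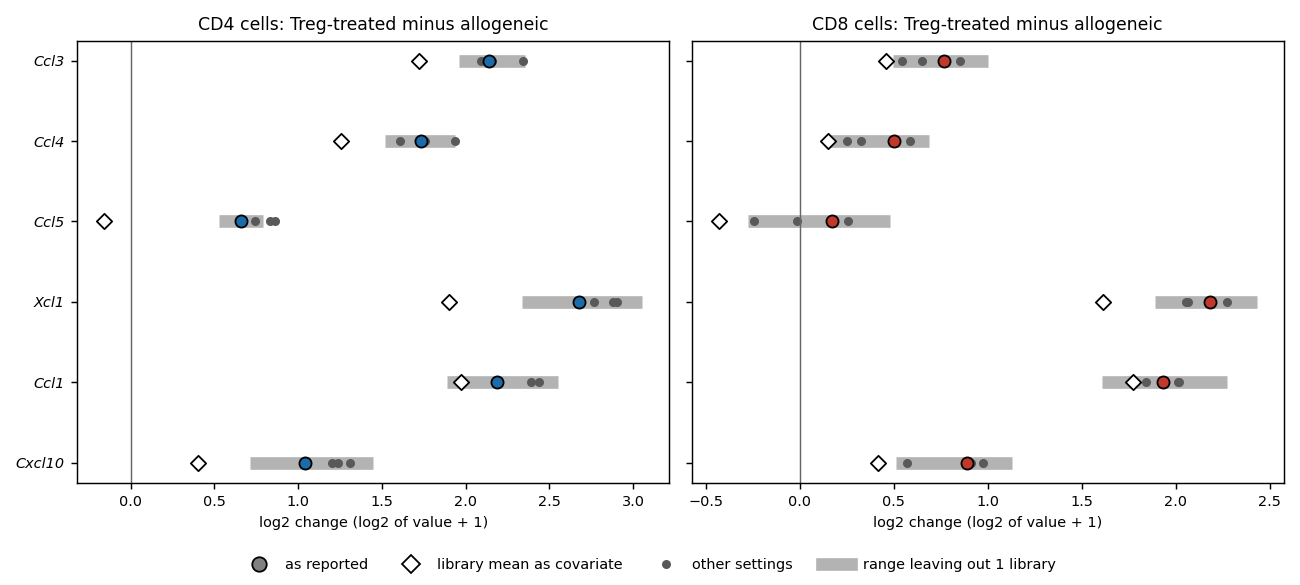
Log2 changes from allogeneic to Treg-treated hosts of the 6 genes in CD4 cells (left) and CD8 cells (right) as reported (coloured circles), with the library mean as a covariate (diamonds), under other settings (small points) and as a range on leaving out 1 library (grey bars). Ccl1, Ccl3, Ccl4 and Xcl1 stay at 1.26 or more in CD4 cells under all settings drawn, and Ccl5 crosses 0 in both cell types.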

How the data were processed

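RNA was measured in 31 libraries of sorted donor T cells. Per the labels' protocols, RNA was extracted with TRIzol and RNeasy MinElute columns, copied with SMARTer v4 chemistry and made into libraries with Nextera XT. The deposited table gives each gene 1 signal a library, a count that the authors had scaled, since the mean over libraries equals the base mean column within 0.0490. As the authors' own tools and builds, the submitters' processing notes name FastQC 0.11.7, kallisto, DESeq2, GRCm38 and mm10, without roles. RNA depth is unknown, so no counting intervals are given, and T-cell receptor tables were not used.

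The 10 groups were taken from the sample labels. Log2(value + 1) was fitted with limma 3.58.1 in R 4.3.3 (trend and robust variances, group means over all 31 libraries), with Benjamini-Hochberg adjustment over 16741 genes in each of 20 comparisons and a threshold of 0.05. The plan allowed for raw counts and used its limma form because the values are scaled. The fit was tested on simulated data. A mean value of at least 1 was required, which all 16741 genes passed. Named beyond the 6 genes are, by rule, the 3 genes most like each (mean value of at least 50), 5 receptors, up to 4 called genes of a list, and Cd4, Cd8a and Foxp3. Ccl6, S100a8, Csf1r, Adgre1, Il2ra, Ikzf2 and Ctla4 were chosen after their values were seen. Some other genes of the lists are not reported here. The 6 genes and all lists were chosen with earlier results of these data known. Alternatives were a pseudocount of 0.1, filters, other scalings, covariates, replicate blocks and leaving out each library. In allogeneic hosts all 4 pairs of CD4 and CD8 libraries with the same title number deviated together (r 0.225 to 0.66), and a block on that number kept all 5 calls there. Array weights, and correlations and marker counts without CD4 syngeneic JL019-2, were added after seeing the data.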

Additional observations from a re-analysis of the deposited data

Results flagged for a closer look

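Ccl1 in CD4 Treg-treated JL027-1, at 5745, lay far below the other 3 libraries of its group (14478 to 16332). Its gap to the nearest of them was 0.885 of the group's range, above Dixon's limit for 4 samples, which chance passes in about 1 of 20 groups. Of 24 groups of 4 libraries tested, this was the only one. Without this library the 4 chemokine calls of that comparison were kept and Cxcl10 was called as well.

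The change of Ccl3 from syngeneic to mismatched hosts differed between CD8 and CD4 cells by 3.09 on the log2 scale, by a limma interaction term (adjusted p = 0.0064). It was 2.46 without CD4 syngeneic JL019-2.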

How the results depend on the processing

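Of 120 pairs of a gene and a comparison, 68 were called; all 68 kept their direction under every alternative run, and 51 stayed called under every planned one. CD4 Treg-treated against allogeneic, with 4 called genes, gave 5 when only the groups compared were fitted, 5 with a replicate block by full label, 5 without Treg-treated JL027-1 and 6 with array weights. The numbers of called genes that moved by more than 1.5 times were as follows. With quantile normalisation, CD4 allogeneic against syngeneic gave 1 and CD8 against CD4 in allogeneic hosts 3. Centring on medians, which moved the median of all genes to 0.20 in the CD4 Treg-treated comparison, and fitting only the groups compared each gave 1 for CD4 allogeneic against syngeneic. The library mean as a covariate gave 1 for CD8 Treg-treated against allogeneic and 2 for the cell-type difference of the allogeneic effect, and it turned Ccl5 in CD4 Treg-treated against allogeneic to -0.16. Array weights gave 2 and 4 for these 2, 6 for CD4 Treg-treated against syngeneic and 2 for the cell-type difference of the Treg effect. On leaving out 1 library the counts ranged from 1 to 2 for CD4 allogeneic against syngeneic, 2 to 5 for CD8 against CD4 in allogeneic hosts, 2 to 5 for CD4 Treg-treated against syngeneic, 1 to 3 for the difference of the allogeneic effect, 0 to 2 for CD8 Treg-treated against allogeneic and 3 to 5 for Treg after transplantation. Some changes that were not called turned sign. Ccl5 in CD8 Treg-treated against allogeneic was -0.012 with quantile normalisation, -0.43 with the library mean, -0.24 with array weights and -0.28 to 0.48 on leaving out 1 library. Ccl5 in CD4 allogeneic against syngeneic was 0.11 centred on medians, 0.18 with the library mean, 0.80 with array weights (called, limma adjusted p = 0.038), 0.032 and 0.35 with a replicate block by prefix and full label, and -0.67 to 0.99 on leaving out 1 library. Cxcl10 there was 0.12 with array weights and -1.05 to 0.23 on leaving out 1. With the library mean, Xcl1 in CD4 syngeneic against day 0 was -0.17 and Cxcl10 in CD8 against CD4 in syngeneic hosts -0.065 (-0.22 to 1.06 on leaving out 1). On leaving out 1 library, Ccl5 in CD4 syngeneic against day 0 ranged from -1.45 to 0.21, and over the other alternatives it fell to -1.65 at the lowest. A lone library left in a group is assumed to vary like the other groups.

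The labels do not say whether libraries whose titles share an arm and a number come from 1 host. Pairs were taken by arm and replicate label, which at day 0 and for JL027 syngeneic is a prefix without a number. Of 21 such pairs, 13 had deviations from their group means with r over 0.1 (-0.35 to 0.68). At day 0, with 2 libraries a group, the deviations mirror each other, so both pairs of a comparison have the same r. Outside the allogeneic hosts no comparison with 3 or more pairs had every r over 0.1. Fitted with a replicate block (by prefix, by full label, or by recipient), the difference of the allogeneic effect gave 2 called genes each time. The block by host left the other counts within 1.5 times. Depth is unknown, so low values, as of Ccl1 at day 0, have no counting error here.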
